A study of Mus musculus with 12 samples.

Results

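The genes described here are 42 listed genes that answer amino acid shortage and unfolded protein, split into an ATF4 arm of 23 and a chaperone arm of 19. Members were rows of the combined expression table that carried a listed gene name, taking the row with the highest mean when a name had several, with a mean of at least 1 FPKM (a fragment count corrected for the length of the transcript and the size of the library) over the 12 libraries. By this rule 38 genes were found, 20 in the ATF4 arm and 18 in the chaperone arm, out of 13508 gene names in the table. The rule used no difference between groups.

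The libraries came from mouse embryonic stem cells of strain 129SvEv, from 2 wild type (WT) lines, 18 and 26, and 2 Arkadia -/- (null) lines, 25 and 39. Arkadia, encoded by Rnf111, is a ubiquitin ligase of the Activin and TGF-beta pathway. Cells were kept in 2i medium with LIF and moved for 24 h into N2B27 on fibronectin, and 3 dishes of each line then received 10 µM SB431542 (SB), an inhibitor of the Activin receptor kinases, for 4 h. One dish per line was harvested at that point, and the others were washed and given 10 ng/ml Activin A for 3 h or 6 h. This gives 6 groups of 2 lines, with 1 library per line and treatment. No dish received fresh medium without Activin, so Activin, release from the inhibitor, the medium change and the added hours cannot be told apart in any comparison with SB. In all groups the cells had passed through 2i medium and SB. The libraries are bulk RNA, so fewer cells of a type and less RNA per cell cannot be told apart.

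Cells that run short of amino acids, or whose endoplasmic reticulum (ER) fills with unfolded protein, activate kinases that phosphorylate the initiation factor eIF2α. Bulk translation then falls while the factor ATF4 is translated, and ATF4 switches on genes for amino acid synthesis, amino acid transport, tRNA charging and feedback. A separate branch of the unfolded protein response works through IRE1, which splices Xbp1 mRNA, and through ATF6, and both raise ER chaperones, disulfide isomerases and degradation factors.

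The DNA elements known for these branches differ, and they were searched in RefSeq promoter windows of GRCm38.p6 (a patch of the assembly also called mm10), from 250 bases before to 50 bases after the start of each gene, on both strands. A window was present for 34 members, 17 in each arm. The ER stress element (ERSE) was searched as CCAAT, 9 free bases and CCACG. It lay in 8 of 17 chaperone windows (47.1%), in 0 of 17 ATF4 windows and in 0.137% of 27025 genes. The 8 were Calr, Canx, Creld2, Dnajc3, Hsp90b1, Hspa5, Pdia6 and Syvn1. The shorter ERSE-II (ATTGG, 1 free base, CCACG) lay in the windows of Dnajb11 and Herpud1 and in 0.0444% of all genes. The C/EBP-ATF element, TGATGCAA or TGATGAAA, lay in 6 of 17 ATF4 windows (35.3%), namely those of Aars, Asns, Atf3, Chac1, Gars and Slc7a11. It also lay in 1 chaperone window, that of Herpud1, and in 2.16% of all genes. The cyclic AMP element TGACGTCA lay in the window of Ppp1r15a and in 2.03% of all genes, and the XBP1 element TGACGTGG lay in no member's window and in 0.714% of all genes. None of these motifs overlapped another in the stretches shown. A match is a match of letters and not evidence of binding. Stretches upstream of the start are shown for some of the members that hold a motif there. They were picked for the motif, so they do not show that members with large changes carry one. Sdf2l1, Pdia4 and Sesn2 also had large changes, and no match was found for them. The capitals mark the C/EBP-ATF element in the first 3 lines and the cyclic AMP element in the line of Ppp1r15a.
Chac1, chr2:119351037-119351068, plus strand: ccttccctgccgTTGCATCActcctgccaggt
Slc7a11, chr3:50443641-50443691, minus strand: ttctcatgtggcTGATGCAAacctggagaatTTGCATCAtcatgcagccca
Atf3, chr1:191183424-191183455, minus strand: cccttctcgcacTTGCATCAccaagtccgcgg
Ppp1r15a, chr7:45526269-45526292, minus strand: ccgcctctccggTGACGTCAgcac

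In the chaperone genes the capitals mark the ERSE, on either strand. In Herpud1 they mark a C/EBP-ATF element first and an ERSE-II second.
Hspa5, chr2:34772013-34772055, plus strand: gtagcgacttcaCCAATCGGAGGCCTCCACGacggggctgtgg
Creld2, chr15:88819508-88819550, plus strand: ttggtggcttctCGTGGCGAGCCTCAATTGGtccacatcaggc
Calr, chr8:84847063-84847105, minus strand: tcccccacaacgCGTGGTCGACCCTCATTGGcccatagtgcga
Pdia6, chr12:17266479-17266521, plus strand: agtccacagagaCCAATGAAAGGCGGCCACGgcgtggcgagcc
Dnajc3, chr14:118937815-118937857, plus strand: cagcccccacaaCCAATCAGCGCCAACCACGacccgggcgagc
Herpud1, chr8:94386305-94386399, plus strand: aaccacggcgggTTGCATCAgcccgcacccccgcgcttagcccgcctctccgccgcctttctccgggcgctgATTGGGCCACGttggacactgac

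Of the 38 members, 36 were tested, 18 in each arm. Asns, which makes asparagine, and Slc3a2, the heavy chain shared by several amino acid transporters, carried a failed status in the authors' table in 7 libraries each and were not tested. Asns was listed at 0 in those 7 libraries and between 44.7 and 64.6 FPKM in the other 5. Slc3a2 was listed between 4.13 and 8.19 FPKM where the status was FAIL and between 59.8 and 73.2 where it was OK. For each gene the failed values occurred in both genotypes and in all 3 treatments, so means of its groups carry no meaning.

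**Figure D1:**
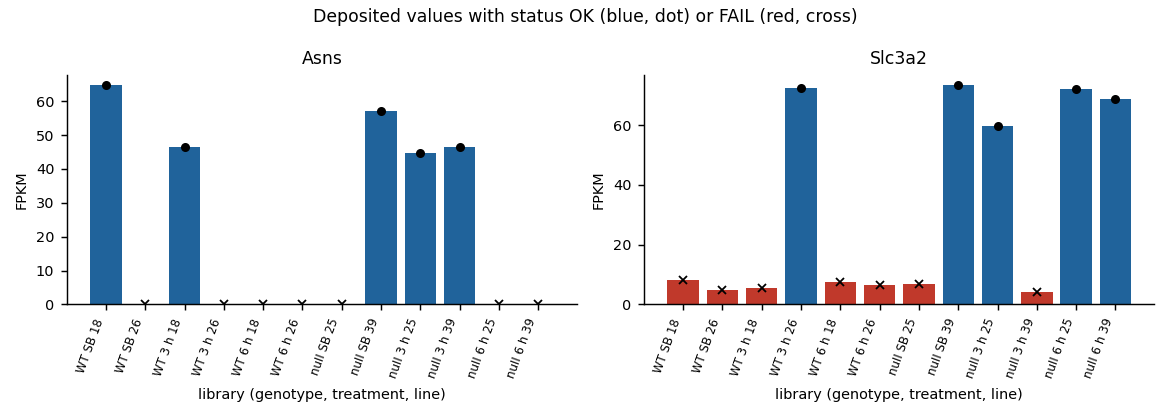
FPKM of Asns and Slc3a2 (vertical axes, from 0) in each of the 12 libraries (horizontal axes). Blue bars with a dot have the status OK and red bars or crosses the status FAIL; the failed values of Asns are all 0 and those of Slc3a2 lie at 4.13 to 8.19 FPKM.

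The rule left out 4 listed genes. Ddit3, which encodes the factor CHOP, had 2 loci, with means of 0.933 FPKM, just under the threshold, and 0.235 FPKM, and the first held none of its exons. Psph, the last enzyme of serine synthesis, had a locus with a mean of 0.226 FPKM that held none of its exons. Slc7a3, a transporter of basic amino acids, had no row of its name. Manf, an ER resident secreted factor, appeared only in a row shared with Rbm15b. The lowest mean among the members was that of Slc7a11, at 1.13 FPKM, and its locus covered 2.95% of the gene's exonic length. Its values therefore describe a short piece of that gene. Loci of Atf5, Cebpb, Ppp1r15a, Shmt2, Slc7a5, Aars, Wars, Pdia3 and Pdia6 overlap other coding genes, and whether counting used the strand is not given in the sources used here.

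As a check of the labels, Rnf111 lay at 3.19 to 4.27 FPKM in the 6 WT libraries and at 0.539 to 0.855 in the 6 null libraries. All 8 stem cell markers (Pou5f1, Sox2, Sall4, Utf1, Dppa4, Zfp42, Nanog and Tdgf1) had means of at least 1 FPKM, and their summed level was 933 to 1525 FPKM. Summed levels of markers of other cells were 16.0 to 26.9 FPKM for fibroblasts, 5.16 to 8.71 for endoderm, 23.4 to 39.0 for neural cells and 85.2 to 168.7 for trophoblast. The FPKM of all loci summed to 578104, 584627 and 604602 in SB in lines 18, 26 and 25, to 722232 in SB in line 39, and to 671164 to 805752 with Activin. Within each of the 4 lines the SB library had the lowest sum. In line 39 the sums with Activin were 785508 at 3 h and 805752 at 6 h. The part of this sum in the results was not tested, and values after quantile normalization are given where they alter a count.

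The arms followed different courses. In the ATF4 arm the median member was lower than in SB at both times, at −0.26 (3 h) and −0.34 (6 h) on the log2(FPKM + 1) scale in WT lines and at −0.25 and −0.35 in null lines. In the chaperone arm the median was −0.22 in WT lines and −0.36 in null lines at 3 h, and 0.23 and 0.21 at 6 h. The medians of all 12823 genes tested lay between −0.01 and 0.02 in these contrasts. After quantile normalization the chaperone medians were −0.40 and 0.08 in WT lines (3 h, 6 h) and −0.39 and 0.07 in null lines, and those of all genes lay between −0.05 and −0.02. Of the 18 chaperone members, 16 (88.9%) had their lowest value at 3 h in all 4 lines, as did 11.7% of all genes. In 12 (66.7%) the value at 6 h was the highest in all 4 lines, as in 11.9% of all genes. The exceptions to the dip were Dnajb9, lowest in SB, and Pdia3, lowest at 3 h only in the null lines. Of the 18 ATF4 members, 14 (77.8%) had their highest value in SB in all 4 lines, against 18.4% of all genes. The 4 others were Atf3, Cebpb, Psat1 and Phgdh.

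**Figure D2:**
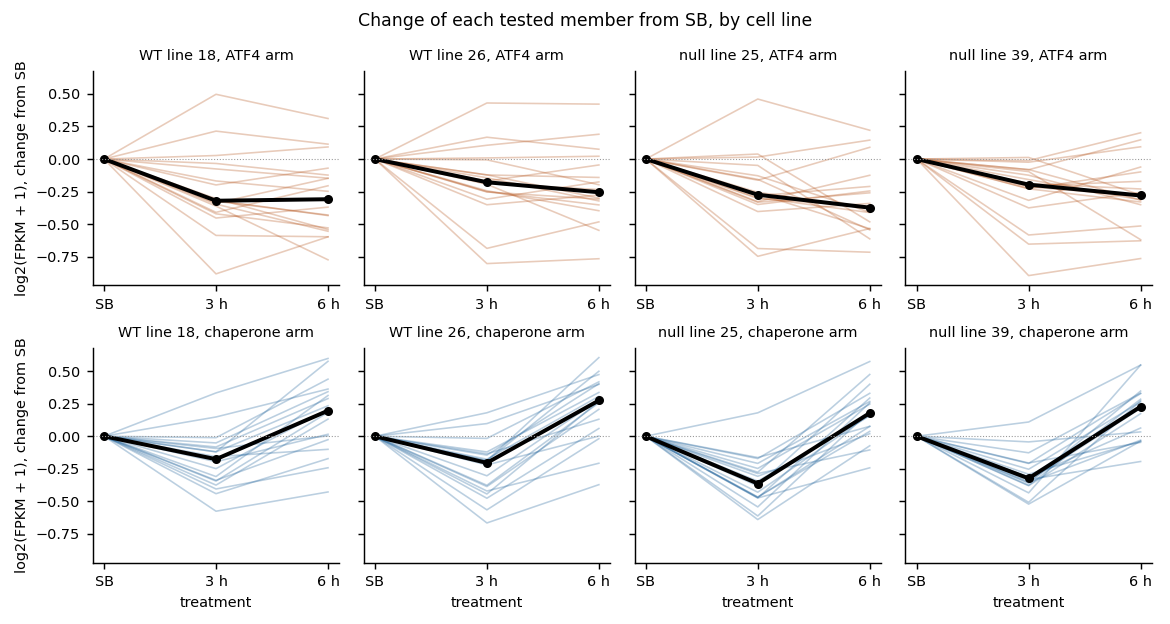
Change from SB on the log2(FPKM + 1) scale (vertical axes) over SB, 3 h and 6 h of Activin (horizontal axes) in each cell line, for 18 ATF4 members (top) and 18 chaperone members (bottom). Thin lines are genes and the thick line is their median; the ATF4 median is below 0 at both times in all 4 lines, and the chaperone median is below 0 at 3 h and above 0 at 6 h in all 4 lines.

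Genes were called with limma where the Benjamini-Hochberg adjusted p, taken over the 12823 genes, was under 0.05. A fit with the cell line as a block was run beside it. Its adjusted p is given as "blocked" for some of the changes where it passes the threshold and the other does not. Changes that are not printed can also pass with the block, such as Calr at 6 h in WT lines, 0.30 (adjusted p = 0.0534, blocked 0.00407). By the test without the block 8 of 18 ATF4 members fell and 1 rose after 3 h of Activin in WT lines, where 9.83% of all genes fell and 12.6% rose. In null lines 5 fell and none rose, against 7.14% and 6.5% of all genes. After 6 h, 7 members fell in WT lines (6.31% of all genes) and 8 in null lines (5.53%), and none rose (9.59% and 7.87% of all genes). From 3 h to 6 h, 1 member fell in each genotype, where 1.31% of all genes fell in WT lines and 1.86% in null lines. The summed level of 5 neural markers was also lower with Activin, at 33.7 to 39.0 FPKM in SB, 26.3 to 26.96 at 3 h and 24.3 to 25.4 at 6 h in WT libraries. In null libraries it was 31.3 to 38.4, 28.6 to 33.1 and 23.4 to 28.0. Of these markers Sox1 and Tubb3 were called lower at 3 h in WT lines, at −0.87 and −0.45. Nes was called higher there, 0.48 (adjusted p = 0.0103), and Pax6 and Map2 were not called. The summed stem cell markers were higher, at 933 to 1056 FPKM in SB and 1266 to 1525 with Activin, but single markers moved both ways. At 3 h in WT lines Pou5f1, Nanog and Tdgf1 were called higher, at 0.56, 4.15 and 4.17. Sox2, Sall4, Utf1 and Zfp42 were called lower, at −0.68, −0.415, −0.32 and −0.78, and Dppa4 was not called. The part of either list in the fall of the ATF4 arm was not tested.

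Among the regulators, Chac1 (chr2:119351207-119354385, mm10), which degrades glutathione, had the largest changes at 3 h. Its values in WT lines 18 and 26 were 11.6 and 10.5 FPKM in SB, 5.83 and 6.14 at 3 h and 7.32 and 7.22 at 6 h. In null lines 25 and 39 they were 10.3 and 11.2 FPKM in SB, 6.01 and 5.57 at 3 h and 5.87 and 6.19 at 6 h. Every Activin library lay below every SB library in both genotypes. Chac1 fell by 0.78 ± 0.076 (SE, adjusted p = 0.000317) at 3 h and by 0.54 ± 0.076 (SE, adjusted p = 0.00258) at 6 h in WT lines. The changes in null lines were −0.79 ± 0.076 (SE, adjusted p = 0.000478) and −0.74 ± 0.076 (SE, adjusted p = 0.000574).

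Ppp1r15a (chr7:45514192-45526276), also known as GADD34, brings a phosphatase to eIF2α and so reverses the signal. WT values were 5.37 and 4.41 FPKM in SB, 3.24 and 3.24 at 3 h and 3.21 and 3.47 at 6 h. Null values were 5.05 and 5.29 FPKM in SB, 2.603 and 2.997 at 3 h and 3.18 and 3.07 at 6 h. The groups with Activin did not overlap those in SB in either genotype. Ppp1r15a fell in all 4 comparisons with SB, by 0.47 ± 0.097 (SE, adjusted p = 0.0132) and 0.44 ± 0.097 (SE, adjusted p = 0.0202) in WT lines at 3 h and 6 h, and by 0.70 ± 0.097 (SE, adjusted p = 0.00362) and 0.58 ± 0.097 (SE, adjusted p = 0.00688) in null lines.

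Sesn2 (chr4:132492030-132510503), a leucine sensor that restrains mTORC1, was the one ATF4 member that also fell from 3 h to 6 h. It had 14.6 and 12.7 FPKM in SB, 11.1 and 10.99 at 3 h and 8.098 and 8.38 at 6 h in WT lines. The null lines gave 11.9 and 11.3 FPKM in SB, 11.4 and 10.5 at 3 h and 7.41 and 7.02 at 6 h. The 6 h libraries were the lowest in every line. The change from 3 h to 6 h was −0.38 ± 0.076 (SE, adjusted p = 0.0406) in WT lines and −0.54 ± 0.076 (SE, adjusted p = 0.0107) in null lines. Against SB it was −0.66 (adjusted p = 0.000954) and −0.62 (adjusted p = 0.00167) at 6 h. At 3 h it fell in WT lines, −0.28 (adjusted p = 0.0344), and was −0.07 (adjusted p = 0.556) in null lines.

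Atf3, a stress-induced factor, was the one ATF4 member called higher, at 3 h in WT lines. It measured 4.17 and 3.999 FPKM in SB, 6.301 and 5.74 at 3 h and 5.42 and 5.695 at 6 h in WT lines. Null lines had 5.96 and 7.07 FPKM in SB, 8.57 and 7.01 at 3 h and 7.11 and 8.28 at 6 h, and all their values lay within or above the WT range. The WT change was 0.46 ± 0.11 (SE, adjusted p = 0.0242) at 3 h and 0.37 (adjusted p = 0.0603) at 6 h, and the null changes were 0.23 (adjusted p = 0.213) and 0.21 (adjusted p = 0.231).

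Cebpb, a partner of ATF4 on DNA, was called only at 6 h in null lines, at −0.38 ± 0.10 (SE, adjusted p = 0.0479). Its values there were 3.84 and 5.03 FPKM, below the 5.74 to 6.36 FPKM of the other 10 libraries. Atf4 itself (chr15:80255048-80257548) is controlled mainly by translation, which these data do not measure. Its mRNA stood at 166 and 155 FPKM in SB, 144 and 138 at 3 h and 158 and 150.2 at 6 h in WT lines. Null lines had 144 and 168 FPKM in SB, 114 and 135 at 3 h and 132 and 161 at 6 h. In each line the 3 h library was the lowest, but the changes at 3 h were −0.18 (adjusted p = 0.284, blocked 0.00749) in WT lines and −0.32 (adjusted p = 0.103, blocked 0.00247) in null lines. Trib3, a pseudokinase that inhibits ATF4, and Atf5 were lower than in SB in all 4 lines at both times, but neither was called without the block. At 6 h Trib3 was −0.47 (adjusted p = 0.06, blocked 0.0195) in WT lines and −0.40 (adjusted p = 0.101, blocked 0.0357) in null lines. Atf5 was −0.29 (adjusted p = 0.188, blocked 0.015) at 3 h and −0.28 (adjusted p = 0.194, blocked 0.0158) at 6 h in null lines.

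In the group of amino acid and one-carbon synthesis, 4 members were tested. Shmt2, the mitochondrial serine hydroxymethyltransferase, had 39.2 and 33.6 FPKM in SB, 29.1 and 30.8 at 3 h and 26.9 and 27.1 at 6 h in WT lines. For null lines the values were 32.5 and 30.5 FPKM in SB, 26.9 and 27.9 at 3 h and 22.1 and 23.7 at 6 h. Both 6 h groups lay below their SB and 3 h groups. It fell at 6 h in both genotypes, −0.41 ± 0.080 (SE, adjusted p = 0.0121) and −0.44 ± 0.080 (SE, adjusted p = 0.0101), and at 3 h in WT lines, −0.27 (adjusted p = 0.0423). Mthfd2, the next mitochondrial folate enzyme, had 60.5 and 54.8 FPKM in SB, 45.3 and 44.1 at 3 h and 52.3 and 48.4 at 6 h in WT lines. Null lines had 47.8 and 47.98 FPKM in SB, 37.3 and 40.9 at 3 h and 40.2 and 44.7 at 6 h, and the 3 h library was the lowest in each line. Mthfd2 fell at 3 h, −0.36 (adjusted p = 0.0167) and −0.29 (adjusted p = 0.0452). At 6 h the values were −0.19 (adjusted p = 0.125, blocked 0.0257) and −0.17 (adjusted p = 0.168, blocked 0.0387). The serine synthesis enzymes Psat1 and Phgdh, at means of 427 and 94.1 FPKM, were not called in any comparison without the block, and both were above SB in all 4 lines at 6 h. Psat1 was 0.19 (adjusted p = 0.359, blocked 0.00866) at 3 h in WT lines and 0.12 (adjusted p = 0.598, blocked 0.049) at 6 h in null lines. Phgdh was 0.14 (adjusted p = 0.134, blocked 0.036) at 6 h in WT lines and 0.24 (adjusted p = 0.0614, blocked 0.0164) from 3 h to 6 h in null lines.

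Of the transporters, Slc7a5, the light chain that carries large neutral amino acids, fell at 6 h in both genotypes. It had 24.9 and 21.8 FPKM in SB, 19.3 and 19.6 at 3 h and 16.6 and 17.2 at 6 h in WT lines. Null libraries held 21.5 and 19.1 FPKM in SB, 19.6 and 18.00 at 3 h and 15.99 and 15.2 at 6 h. The 6 h library was the lowest in every line. The changes at 6 h were −0.44 ± 0.084 (SE, adjusted p = 0.0116) and −0.36 ± 0.084 (SE, adjusted p = 0.0268). Slc7a11, the cystine transporter, was measured over a short piece at low values, 1.83 and 2.25 FPKM in SB, 1.24 and 0.864 at 3 h and 1.55 and 0.913 at 6 h in WT lines and 1.07 and 1.34 FPKM in SB, 0.687 and 0.564 at 3 h and 0.558 and 0.641 at 6 h in null lines. It was called lower only at 3 h in WT lines, −0.57 (adjusted p = 0.039).

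The 4 tRNA synthetases tested were lower with Activin than in SB in every line at both times, and 2 of them, Nars and Wars, were called in all 4 comparisons with SB. Nars, which charges the asparagine tRNA, had 72.6 and 71.5 FPKM in SB, 58.1 and 59.95 at 3 h and 53.5 and 55.8 at 6 h in WT lines. The null lines gave 62.8 and 63.5 FPKM in SB, 50.7 and 54.03 at 3 h and 48.5 and 50.3 at 6 h. Its changes were −0.28 (adjusted p = 0.0107) and −0.39 (adjusted p = 0.00263) in WT lines and −0.27 (adjusted p = 0.0181) and −0.35 (adjusted p = 0.00567) in null lines. Wars, for the tryptophan tRNA, had 23.7 and 22.2 FPKM in SB, 17.03 and 18.5 at 3 h and 18.1 and 17.8 at 6 h in WT lines. Null lines had 20.2 and 19.3 FPKM in SB, 15.8 and 16.5 at 3 h and 16.7 and 15.6 at 6 h. In neither gene did an Activin group overlap the SB group of its genotype, and the share of all genes without overlap was not counted. Wars changed by −0.35 (adjusted p = 0.00889) and −0.34 (adjusted p = 0.0125), and in null lines by −0.27 (adjusted p = 0.0293) and −0.27 (adjusted p = 0.0308). Aars and Gars were not called without the block. Aars was −0.26 (adjusted p = 0.131, blocked 0.0127) and −0.33 (adjusted p = 0.0756, blocked 0.00577) in WT lines and −0.21 (adjusted p = 0.243, blocked 0.0329) and −0.35 (adjusted p = 0.0747, blocked 0.00552) in null lines. Gars was −0.14 (adjusted p = 0.176, blocked 0.0301) and −0.20 (adjusted p = 0.0969, blocked 0.012), and −0.24 (adjusted p = 0.0589, blocked 0.00737) and −0.19 (adjusted p = 0.113, blocked 0.0144) in null lines.

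In the chaperone arm, 6 of 18 members fell and none rose after 3 h in WT lines, and 10 fell and none rose in null lines, against the same shares of all genes as above. After 6 h none fell (6.31% of all genes in WT lines and 5.53% in null lines). At that time 6 rose in WT lines (9.59% of all genes) and 5 in null lines (7.87%). From 3 h to 6 h, 9 members rose in WT lines, where 1.22% of all genes rose, and 13 in null lines, where 2.78% did, and none fell. All 18 were higher at 6 h than at 3 h in all 4 lines. The share of all genes that did so was not counted. The median change of all genes from 3 h to 6 h was 0.01 in WT lines and 0.02 in null lines.

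**Figure D3:**
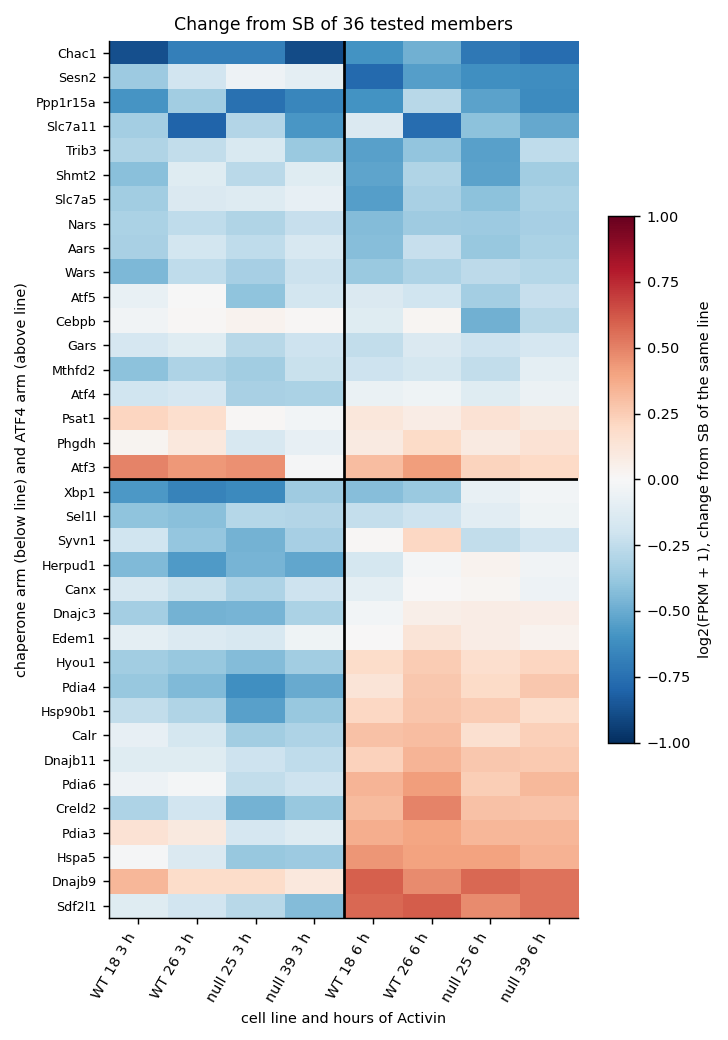
Change from SB of the same line on the log2(FPKM + 1) scale (colour, red higher and blue lower) for the 36 tested members (rows, ATF4 arm above the black line) in each cell line at 3 h and 6 h (columns). In the chaperone rows 16 of 18 genes are below 0 at 3 h in all 4 lines and 12 of 18 are above 0 at 6 h in all 4 lines. The shares of all genes that did so were not counted.

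Hspa5 (chr2:34772054-34776941) encodes BiP, the main HSP70 chaperone of the ER. WT values were 525 and 512 FPKM in SB, 521 and 463 at 3 h and 712 and 677 at 6 h. Null values were 527 and 567 FPKM in SB, 405 and 441 at 3 h and 696 and 721 at 6 h. The 6 h libraries were above all others in both genotypes. From 3 h to 6 h Hspa5 rose by 0.50 ± 0.087 (SE, adjusted p = 0.0252) in WT lines and 0.74 ± 0.087 (SE, adjusted p = 0.00513) in null lines. It rose against SB at 6 h, 0.42 (adjusted p = 0.0159) and 0.37 (adjusted p = 0.0273). At 3 h it fell in null lines, −0.37 (adjusted p = 0.0266), and was −0.08 (adjusted p = 0.54) in WT lines.

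Sdf2l1 (chr16:17130071-17132375), which works with the ER chaperones on misfolded proteins, had the largest rise from 3 h to 6 h. It had 71.1 and 65.7 FPKM in SB, 65.4 and 57.6 at 3 h and 106 and 100.4 at 6 h in WT lines. Null lines had 59.5 and 61.4 FPKM in SB, 48.95 and 45.2 at 3 h and 83.05 and 90.2 at 6 h. The rise from 3 h was 0.74 ± 0.082 (SE, adjusted p = 0.00429) and 0.87 ± 0.082 (SE, adjusted p = 0.00278). Against SB it was 0.59 (adjusted p = 0.00252) and 0.51 (adjusted p = 0.00588) at 6 h, and at 3 h the value was −0.15 (adjusted p = 0.201) in WT lines, and it fell in null lines, −0.36 (adjusted p = 0.0255).

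Pdia4, a protein disulfide isomerase, fell at 3 h and rose from 3 h to 6 h in both genotypes. WT lines had 96.04 and 88.7 FPKM in SB, 73.8 and 64.9 at 3 h and 105 and 107 at 6 h. Null lines had 85.5 and 77.7 FPKM in SB, 55.6 and 54.4 at 3 h and 97.8 and 94.1 at 6 h. The fall was −0.41 ± 0.078 (SE, adjusted p = 0.00974) and −0.56 ± 0.078 (SE, adjusted p = 0.00388), and the rise from 3 h was 0.61 ± 0.078 (SE, adjusted p = 0.00832) and 0.79 ± 0.078 (SE, adjusted p = 0.00323). At 6 h it was above SB in all 4 lines but not called, 0.20 (adjusted p = 0.108, blocked 0.0338) and 0.23 (adjusted p = 0.0819, blocked 0.0223). Hsp90b1, the HSP90 of the ER, had the same calls. It had 215 and 209 FPKM in SB, 180.4 and 169 at 3 h and 248 and 254 at 6 h in WT lines. Values in null lines were 198 and 189.7 FPKM in SB, 136 and 146 at 3 h and 237 and 214 at 6 h. Its fall at 3 h was −0.28 (adjusted p = 0.03) and −0.46 (adjusted p = 0.00604), and its rise from 3 h was 0.52 (adjusted p = 0.0106) and 0.68 (adjusted p = 0.00412). Hyou1, a large HSP70 relative, also had these calls. It had 51.9 and 48.1 FPKM in SB, 40.7 and 36.8 at 3 h and 59.1 and 57.7 at 6 h in WT lines. The null lines had 45.4 and 38.5 FPKM in SB, 33.5 and 30.1 at 3 h and 51.1 and 44.8 at 6 h. Its 3 h changes were −0.36 (adjusted p = 0.0367) and −0.39 (adjusted p = 0.0382), and those from 3 h to 6 h 0.58 (adjusted p = 0.0253) and 0.58 (adjusted p = 0.0206).

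Creld2, an ER stress gene with isomerase activity, had 34.5 and 29.02 FPKM in SB, 27.6 and 25.3 at 3 h and 43.1 and 41.4 at 6 h in WT lines. For null lines the values were 28.1 and 24.8 FPKM in SB, 19.96 and 18.9 at 3 h and 34.7 and 30.5 at 6 h. In both genotypes the 6 h values lay above all SB and 3 h values. The rise from 3 h was 0.66 ± 0.10 (SE, adjusted p = 0.0165) and 0.71 ± 0.10 (SE, adjusted p = 0.0109). Against SB it rose at 6 h in WT lines, 0.41 (adjusted p = 0.0309), and fell at 3 h in null lines, −0.42 (adjusted p = 0.0284). Pdia6, another disulfide isomerase, had 277 and 263 FPKM in SB, 267 and 259.7 at 3 h and 351 and 351 at 6 h in WT lines. Null lines had 275 and 272 FPKM in SB, 232 and 236 at 3 h and 327 and 342 at 6 h. It rose at 6 h against SB, 0.38 (adjusted p = 0.00488) and 0.29 (adjusted p = 0.0185), and against 3 h, 0.41 (adjusted p = 0.0127) and 0.52 (adjusted p = 0.00513). At 3 h it fell in null lines, −0.23 (adjusted p = 0.0394), and was −0.03 (adjusted p = 0.709) in WT lines.

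Calr, a calcium-binding lectin chaperone, had 451 and 431 FPKM in SB, 426 and 381 at 3 h and 552 and 533 at 6 h in WT lines. Null libraries held 470.2 and 422 FPKM in SB, 370.1 and 339.7 at 3 h and 524 and 498 at 6 h. It rose from 3 h to 6 h, 0.43 (adjusted p = 0.0452) and 0.53 (adjusted p = 0.0183), and fell at 3 h in null lines, −0.33 (adjusted p = 0.0433). Pdia3, the isomerase that works with the lectin chaperones, had 385 and 371 FPKM in SB, 427 and 397 at 3 h and 495 and 489 at 6 h in WT lines. Null lines had 388 and 394 FPKM in SB, 345 and 361 at 3 h and 488 and 496 at 6 h. It rose at 6 h against SB, 0.38 (adjusted p = 0.00846) and 0.33 (adjusted p = 0.0163), and from 3 h to 6 h in null lines, 0.48 (adjusted p = 0.0103). The WT value from 3 h to 6 h was 0.26 (adjusted p = 0.0896, blocked 0.0196). At 3 h against SB Pdia3 was 0.12 (adjusted p = 0.21, blocked 0.0485) in WT lines. In null lines 25 and 39 that change was −0.17 and −0.13.

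The J-domain partners of BiP did not follow one course. Dnajb9, or ERdj4, had 18.3 and 20.1 FPKM in SB, 23.3 and 22.9 at 3 h and 28.2 and 28.3 at 6 h in WT lines. Values in null lines were 21.1 and 23.9 FPKM in SB, 23.98 and 25.9 at 3 h and 31.8 and 35.4 at 6 h. It was above SB at both times in all 4 lines, and it rose at 6 h, 0.54 ± 0.083 (SE, adjusted p = 0.00424) and 0.56 ± 0.083 (SE, adjusted p = 0.0039). Between 3 h and 6 h it rose in null lines, 0.41 (adjusted p = 0.0305), and was 0.28 (adjusted p = 0.129, blocked 0.0288) in WT lines. Dnajc3, which also inhibits the eIF2α kinases, had 11.2 and 10.9 FPKM in SB, 8.68 and 7.59 at 3 h and 11.02 and 11.4 at 6 h in WT lines. Null lines had 10.98 and 9.54 FPKM in SB, 7.66 and 7.48 at 3 h and 11.6 and 10.01 at 6 h. Dnajc3 fell at 3 h, −0.41 (adjusted p = 0.0199) and −0.39 (adjusted p = 0.0292), and at 6 h it was 0.02 (adjusted p = 0.915) and 0.07 (adjusted p = 0.641) against SB. It rose from 3 h to 6 h in null lines, 0.46 (adjusted p = 0.0329), and was 0.42 (adjusted p = 0.0577, blocked 0.0264) in WT lines. Dnajb11, or ERdj3, had 48.9 and 46.3 FPKM in SB, 44.9 and 42.5 at 3 h and 57.7 and 58.7 at 6 h in WT lines. Its null values were 46.1 and 41.1 FPKM in SB, 39.8 and 34.3 at 3 h and 55.7 and 49.5 at 6 h. Its one call without the block was the rise from 3 h to 6 h in null lines, 0.50 (adjusted p = 0.0242). The WT value was 0.41 (adjusted p = 0.0603, blocked 0.00697).

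The factor Xbp1 and the genes of ER-associated degradation were lower at 3 h than in SB in all 4 lines, but none was called above SB at 6 h. Herpud1, which organises the degradation complex, had 12.8 and 12.4 FPKM in SB, 9.18 and 8.08 at 3 h and 11.3 and 12.3 at 6 h in WT lines. Null lines had 10.2 and 10.6 FPKM in SB, 7.12 and 7.05 at 3 h and 10.5 and 10.3 at 6 h. It fell at 3 h, −0.50 ± 0.072 (SE, adjusted p = 0.00288) and −0.49 ± 0.072 (SE, adjusted p = 0.0045), rose from 3 h to 6 h, 0.41 (adjusted p = 0.0262) and 0.49 (adjusted p = 0.0121), and was −0.10 (adjusted p = 0.375) and 0.00 (adjusted p = 1) against SB at 6 h. Sel1l, the partner of the ligase Syvn1, had 4.18 and 3.87 FPKM in SB, 2.91 and 2.64 at 3 h and 3.38 and 3.22 at 6 h in WT lines. In null lines it had 3.63 and 2.92 FPKM in SB, 2.79 and 2.202 at 3 h and 3.301 and 2.81 at 6 h. It fell at 3 h in WT lines, −0.41 (adjusted p = 0.04). Xbp1 (chr11:5520775-5525915) had 28.2 and 25.9 FPKM in SB, 18.6 and 15.96 at 3 h and 20.7 and 19.8 at 6 h in WT lines. Null lines had 22.04 and 13.99 FPKM in SB, 13.8 and 10.7 at 3 h and 20.9 and 13.7 at 6 h, with line 25 above line 39 in each treatment. Xbp1 was not called, at −0.62 ± 0.23 (SE, adjusted p = 0.0837, blocked 0.00193) and −0.50 ± 0.23 (SE, adjusted p = 0.178, blocked 0.00628) at 3 h. Splicing of Xbp1 was not analysed here. Edem1, Syvn1 and Canx were not called in any comparison without the block, and Edem1 in none with it. Canx, a membrane-bound lectin chaperone, was −0.19 (adjusted p = 0.207, blocked 0.0384) and −0.26 (adjusted p = 0.126, blocked 0.0174) at 3 h and 0.24 (adjusted p = 0.21, blocked 0.0389) from 3 h to 6 h in null lines. Syvn1 was −0.40 (adjusted p = 0.0508, blocked 0.0229) at 3 h in null lines.

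**Figure D4:**
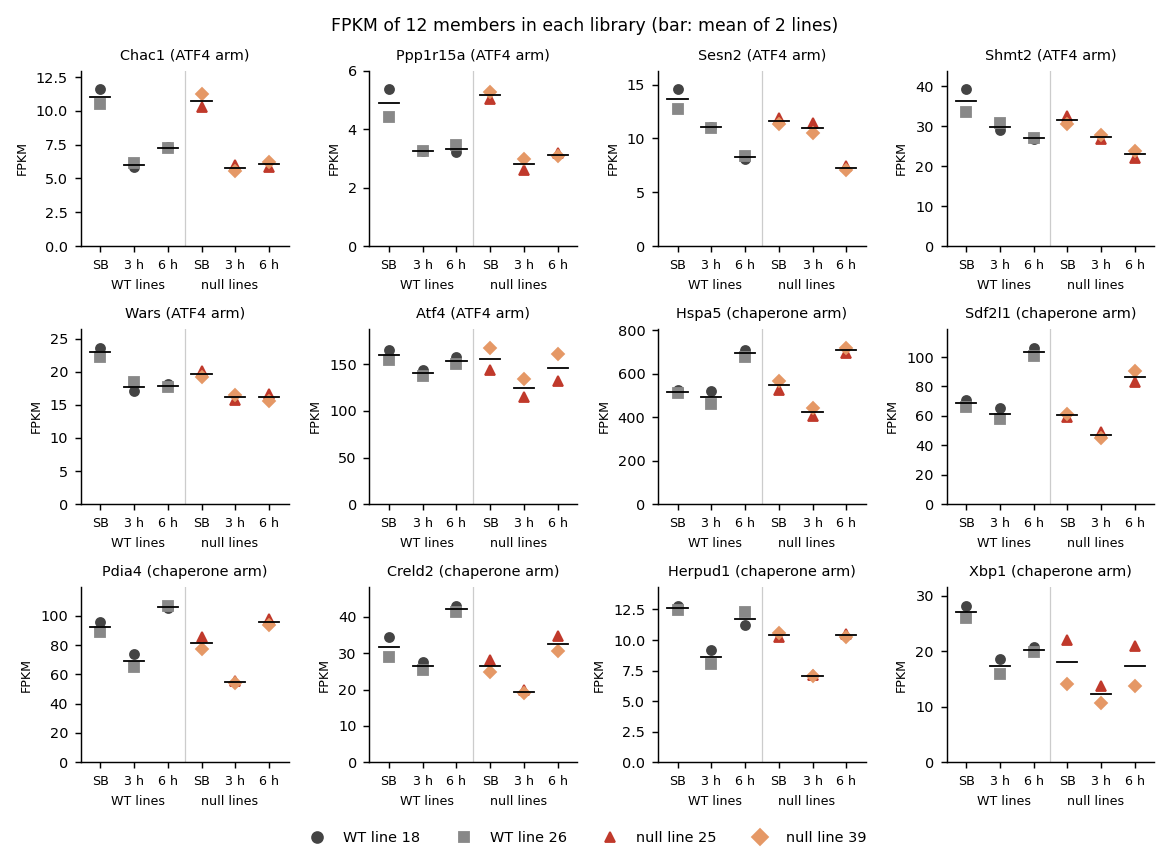
FPKM (vertical axes, from 0) of 6 ATF4 and 6 chaperone members in SB and after 3 h and 6 h of Activin, WT lines left and null lines right in each panel. Points are single libraries, with shape and colour for the line, and bars are means of 2 lines; Chac1 in WT lines is at 10.5 and 11.6 FPKM in SB and at 5.83 to 7.32 with Activin.

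The changes of chaperone members with an ERSE in the window overlapped those of the others, and the difference was not tested. From 3 h to 6 h the 8 with the element had a median change of 0.43 in WT lines (0.14 to 0.66) and 0.52 in null lines (0.19 to 0.74). The other 10 had medians of 0.34 (0.18 to 0.74) and 0.49 (0.16 to 0.87). The row shared by Manf and Rbm15b, which is no member, was at 216 and 209 FPKM in SB, 265 and 236 at 3 h and 363 and 340.4 at 6 h in WT lines, and rose by 0.49 from 3 h to 6 h (adjusted p = 0.0262). In null lines it rose by 0.53 (adjusted p = 0.0161). These reads cannot be split between the genes.

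With the cell line as a block, more genes passed, among members and among all genes. In the ATF4 arm 2 rose and 12 fell at 3 h in WT lines, and in the chaperone arm 2 rose and 9 fell, where 21.3% of all genes rose and 15.9% fell. At 6 h in WT lines 1 and 11 ATF4 members and 11 and 2 chaperone members rose and fell (21.6% and 12.3% of all genes). In null lines at 3 h, 9 ATF4 and 16 chaperone members fell and none rose (14.1% and 15.5%). At 6 h, 1 ATF4 member rose and 13 fell, and 11 chaperone members rose and none fell (19.4% and 12% of all genes rose and fell). Quantile normalization brought the chaperone members that rose at 6 h from 6 to 2 of 18 (11.1%) in WT lines and from 5 to 2 in null lines, where 9.05% and 7.49% of all genes rose in that fit. Over both arms it moved the split at 6 h from 6 higher and 7 lower to 2 and 12 in WT lines, and from 5 and 8 to 2 and 10 in null lines. From 3 h to 6 h it left 8 chaperone members higher in WT lines and 9 in null lines (1.36% and 2.09% of all genes). The calls rest on 2 lines a group. Without line 18 or line 26 none of the 36 members was called in WT lines at 3 h (of all genes 136 and 126 rose and 7 and 11 fell) or at 6 h (104 and 75 rose and 13 and 14 fell). Those fits called no gene of the 12823 from 3 h to 6 h in WT lines, and the fits without any 1 of the 4 lines called none in null lines, so they say nothing about the members. Without line 25, the members called in null lines went from 15 to 2 at 3 h (3.46% of all genes) and from 13 to 8 at 6 h (11% of all genes). Without line 18 or line 26, which removes no null library, fewer members and fewer of all genes were called in null lines too. The cause was not tested.

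The null lines were compared with the WT lines in each treatment, which addresses whether loss of Arkadia alters these genes. None of the 36 members was called by limma in SB, at 3 h or at 6 h, where 0.312%, 0.382% and 0.211% of all genes were called in either direction. At an unadjusted p under 0.05 there were 13, 16 and 12 members, and 14.9%, 12.9% and 14.7% of all genes. The median member was lower in null lines, by 0.13 in SB, 0.19 at 3 h and 0.14 at 6 h on the log2 scale, and 28, 32 and 31 of 36 had lower estimates. The medians of all genes were −0.0031, −0.0043 and −0.014. Members are not independent replicates, so these counts are a description and not a test. The smallest adjusted p in SB was that of Atf3, higher in null lines by 0.56 ± 0.11 (SE, adjusted p = 0.104). At 3 h it was that of Sdf2l1, at −0.38 ± 0.082 (SE, adjusted p = 0.128), and at 6 h that of Syvn1, at −0.46 ± 0.12 (SE, adjusted p = 0.178). Without line 25, 5 of 36 members were called in SB and 6 at 6 h, where 16% and 11.8% of all genes were called. The summed level of trophoblast markers was 85.2 to 103.7 FPKM in WT libraries and 114.3 to 168.7 in null libraries. None of the 7 tested was called between genotypes by limma without the block. With the block Krt18, an abundant keratin, passed in SB and at 6 h. In null against WT lines Krt18 was 0.81 (adjusted p = 0.0779, blocked 0.039) in SB and 0.66 (adjusted p = 0.136) at 3 h. At 6 h it was 0.82 (adjusted p = 0.0837, blocked 0.0398). Eomes, a trophoblast and mesendoderm factor, was −0.13 (adjusted p = 0.494), −0.35 (adjusted p = 0.188) and −0.27 (adjusted p = 0.277). The part of these markers in the members' differences was not tested.

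The difference between genotypes in the response to 3 h or 6 h of Activin was tested too. Without the block, limma called no member and no other gene (0% and 0% of 12823 genes). With the block it called 3 genes at 3 h, all with the lower response in null lines (0.0234% of all genes). At 6 h it called 0 genes. The 3 genes are not named here. At an unadjusted p under 0.05 there were 3 members at 3 h and 0 at 6 h, and 5.1% and 2.98% of all genes. Across the 36 genes, which are not independent replicates, the WT and null changes, which share no library, had a Pearson r of 0.833 at 3 h, 0.935 at 6 h and 0.926 from 3 h to 6 h.

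**Figure D5:**
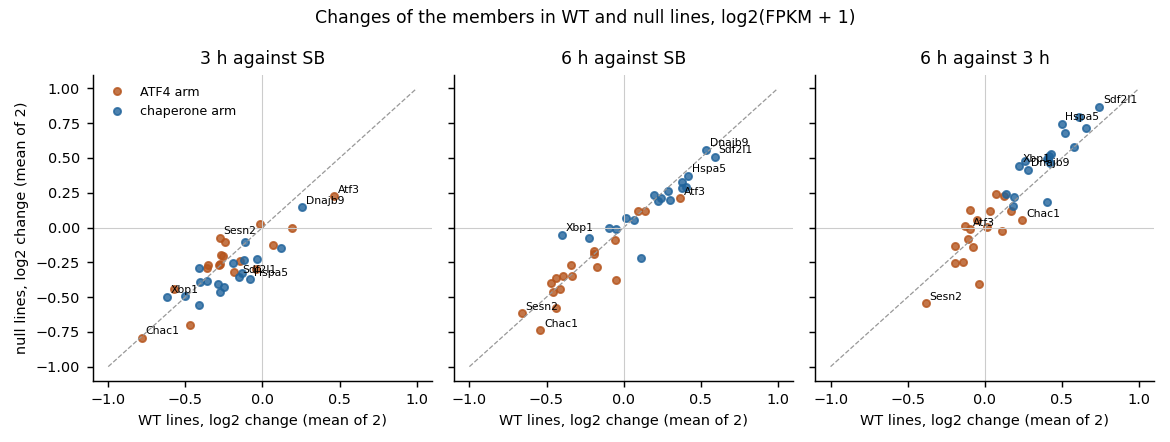
Log2(FPKM + 1) change in null lines (vertical axes) against WT lines (horizontal axes), each a mean of 2 lines, for 18 ATF4 and 18 chaperone members in 3 comparisons. The dashed line marks equal change; r over the 36 members is 0.833, 0.935 and 0.926, and all chaperone members lie above 0 on both axes from 3 h to 6 h.

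Other genes of the pathways were read from lists. Of 10 sensors and eIF2 factors tested, only Eif2s1, which encodes eIF2α, was called, at 3 h in WT lines by 0.56 ± 0.14 (SE, adjusted p = 0.0255). Of 23 further ATF4 targets, 8 and 11 fell at 3 h and 6 h in WT lines and 7 and 11 in null lines, and none rose. Of all genes 9.83% and 6.31% fell in WT lines and 7.14% and 5.53% in null lines. Slc38a2, a neutral amino acid transporter, changed most at 6 h, by −0.68 (adjusted p = 0.00133) in WT and −0.61 (adjusted p = 0.00277) in null lines. Pck2, the mitochondrial PEP carboxykinase, fell at 3 h, −0.58 (adjusted p = 0.0239) and −0.60 (adjusted p = 0.0278). Of 26 further ER genes, 5 rose and 2 fell at 3 h in WT lines, where 12.6% and 9.83% of all genes did, and 10 rose and 1 fell at 6 h (9.59% and 6.31%). In null lines 0 rose and 3 fell at 3 h (6.5% and 7.14%), and 8 rose and 1 fell at 6 h (7.87% and 5.53%). Sil1, a nucleotide exchange factor of BiP, rose at 3 h in WT lines, 1.13 (adjusted p = 0.0389), and was 0.37 (adjusted p = 0.471) in null lines. Os9, a lectin of ER-associated degradation, fell at 3 h, −0.61 (adjusted p = 0.00851) and −0.51 (adjusted p = 0.0225). Hspa13, an ER-linked HSP70 relative, rose at 6 h, 0.59 (adjusted p = 0.00177) and 0.58 (adjusted p = 0.00225). Of 10 cytosolic heat shock genes, 2 rose and 2 fell at 3 h in WT lines, against 12.6% and 9.83% of all genes. Hspe1, the mitochondrial co-chaperonin on that list, rose by 0.69 (adjusted p = 0.0407) and Hspa1b fell by 0.61 (adjusted p = 0.0108). The mean of Hspa1b over the libraries was under 1 FPKM. At 6 h in WT lines Hspa1b and Hspb1 were called lower, at −0.55 (adjusted p = 0.0199) and −0.52 (adjusted p = 0.0206). No other gene of this list was called there, where 9.59% of all genes rose and 6.31% fell. In null lines 3 of the 10 fell at 3 h (7.14% of all genes) and none was called at 6 h.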

How the data were processed

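Poly(A) RNA from 12 dishes was sequenced as 50 bp single reads, per the labels' protocols. The deposited table gives FPKM per locus with a status for each value, and coordinates are those of mm10, which the submitters' processing notes name. Neither aligner, quantifier nor use of strand is stated: these were not given in the sources used here. The table holds 17446 loci, and 27 with a status other than OK were left out. Read totals per library are not given there either. Relative depth was read from the steps between low FPKM values in 2 ways, which disagreed by a factor of about 2 in the SB libraries of WT line 26 and null line 25, so no depth is reported. Low values are less precise.

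Genes with at least 1 FPKM in at least 2 libraries (12823) were tested with limma 3.58.1 in R 4.3.3 on log2(FPKM + 1), with 6 group means, a trend on mean expression, 6 residual degrees of freedom, two-sided tests and Benjamini-Hochberg adjustment over all genes (threshold 0.05, 11 contrasts). Every adjusted p in the text comes from limma. The pseudocount understates changes of low genes. The fit was tested on simulated data. Each line gave 1 library per treatment. The p-values without the block rest on the spread between lines within a group, shared over all 6 groups of both genotypes. They do not measure how far the response to treatment varied between the lines of 1 genotype. The pairing of libraries comes from the cell line they share: deviations of the libraries of a line from their group means correlated at 0.05, 0.05 and 0.02 in WT lines and at 0.25, 0.35 and 0.25 in null lines (SB with 3 h, SB with 6 h, 3 h with 6 h). Lines are nested in genotype, so for null against WT the block was random (correlation 0.344).

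The members and gene lists were chosen with earlier results of these data known. Named with values in every library were members called in any contrast, up to 14 per arm by largest change, and Atf4, Ddit3, Xbp1 and Hspa5. Ddit3 had no usable locus. From the other lists, genes with large changes among those called were named. Exons came from GENCODE M21. Alternatives were the line as a block, a pseudocount of 0.1, a filter at 5 FPKM or none, quantile normalization, only the groups compared, and each line left out.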

Additional observations from a re-analysis of the deposited data

Results flagged for a closer look

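In 3 members, in comparisons with SB, both WT lines moved one way and both null lines the other. Phgdh, an enzyme of serine synthesis, was above SB at 3 h in both WT lines and below it in both null lines, and the null response minus the WT response was −0.19 on the log2(FPKM + 1) scale (limma, adjusted p = 0.928). Pdia3, an ER disulfide isomerase, did the same at 3 h, with a difference of −0.27 (adjusted p = 0.87). Syvn1, the ligase of ER-associated degradation, was above SB at 6 h in both WT lines and below it in both null lines, with a difference of −0.33 (adjusted p = 1). None of these 3 differences passed the threshold. From 3 h to 6 h Psat1, of serine synthesis, and Gars, a tRNA synthetase, were lower in both WT lines and higher in both null lines, with differences of 0.22 and 0.10 that were not tested. Such opposite movement held for 2 of 36 members at 3 h, 1 at 6 h and 2 from 3 h to 6 h (5.56%, 2.78% and 5.56%), and for 6.64%, 4.78% and 9.3% of all genes.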

How the results depend on the processing

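No member called in the report changed direction under any alternative. Of 80 calls of single members in single comparisons, all 80 held with the replicate block (cell line), 79 with a pseudocount of 0.1, 79 with no filter, 65 with quantile normalization and 29 with only the groups compared in the fit. At a filter of 5 FPKM 78 could be tested and 78 held. With the block 25 members were called, against 15 and 13 without it, in WT lines at 3 h and 6 h, and 25 against 15 and 13 in null lines. With only the groups compared, 3 instead of 10 members were called in WT lines from 3 h to 6 h, and in null lines 1 instead of 15 at 3 h, 0 instead of 13 at 6 h and 0 instead of 14 from 3 h to 6 h. That fit called 0.491% of all genes in the first of these and 1.37%, 0.99% and 0% in the null lines. In WT lines against SB it called 28.8% of all genes at 3 h and 24.3% at 6 h. With all groups in the fit these shares were 22.5% and 15.9%. The fit of the groups compared has fewer libraries to estimate the spread in both genotypes. Why its calls rose in WT lines and fell in null lines was not tested.

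Leaving out each line in turn, with the lone library of that group assumed to vary like the other groups, gave 0 to 20 members called in WT lines at 3 h, 0 to 21 at 6 h and 0 to 10 from 3 h to 6 h (1.07% to 34%, 0.694% to 30.4% and 0% to 3.56% of all genes). In null lines it gave 2 to 14, 3 to 11 and 0 to 0 (1.9% to 16%, 2.99% to 13.9% and 0%). Null against WT gave 0 to 5 in SB, 0 to 0 at 3 h and 0 to 6 at 6 h (0% to 16%, 0% to 1.06% and 0% to 11.8% of all genes), and the differences in response gave 0 to 0. Of the 80 calls, 73 were lost without line 18, 73 without line 26, 36 without line 25 and 26 without line 39.

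Means over lines of the ATF4 median were −0.25, −0.28 and −0.06 in WT lines (3 h, 6 h and 6 h against 3 h; single lines −0.32 to −0.18, −0.31 to −0.26 and −0.08 to −0.03) and −0.24, −0.33 and −0.01 in null lines (−0.27 to −0.20, −0.37 to −0.28 and −0.0451 to 0.0301). Those of the chaperone median were −0.19, 0.24 and 0.42 in WT lines (−0.21 to −0.18, 0.20 to 0.27 and 0.33 to 0.51) and −0.34, 0.20 and 0.50 in null lines (−0.36 to −0.32, 0.18 to 0.23 and 0.50 to 0.50). Quantile normalization moved the ATF4 median at 6 h in WT lines to −0.40, and the chaperone medians to −0.39 and 0.0738 in WT lines (3 h, 6 h) and to −0.39, 0.068 and 0.47 in null lines. A pseudocount of 0.1 moved the last to 0.53. The cause was not tested. Precision is limited by 2 lines a group.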
